A study of Mus musculus with 2 samples.

Results

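The genes of glycolysis, of pyruvate entry into mitochondria and of the citric acid cycle were examined in the adrenal gland of the mouse. A total of 43 genes were taken by symbol: 17 of glycolysis, 10 of pyruvate entry and 16 of the cycle and its aspartate aminotransferases. They are 43 of the 16400 annotated genes with reads, and every transcript model that the deposited tables assign to one of these symbols was counted, 454 of 65815 models in replicate 1 and 561 of 99180 in replicate 2. Long-read RNA sequencing, which reads a transcript along its length and so shows which exons lie together in 1 molecule, had been applied to total RNA of the adrenal gland. The 2 libraries form 1 group, biological replicates 1 and 2 of female B6CASTF1/J mice aged 25 days, a first-generation hybrid of the C57BL/6J and CAST/EiJ strains. The labels name no treatment, and no other group was analysed here, so no condition was compared. The tissue descriptions name a different animal for each library, but both library descriptions name the same one. Whether the libraries come from separate animals is therefore uncertain. The tests compare only these 2 libraries and allow for counting error alone.

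Glycolysis splits glucose in the cytosol into pyruvate and yields ATP and NADH. Pyruvate is reduced to lactate by lactate dehydrogenase, or crosses the inner mitochondrial membrane through the carrier formed by Mpc1 and Mpc2. In the matrix the pyruvate dehydrogenase complex turns it into acetyl-CoA, which enters the citric acid cycle, or pyruvate carboxylase turns it into oxaloacetate, which refills the cycle. Many steps have several genes whose enzymes differ in tissue and regulation, and the pyruvate kinase gene Pkm makes a pair of enzymes by choosing between alternative exons. In steroid-making cells, the hydroxylases of hormone synthesis draw on NADPH, which isocitrate dehydrogenases and malic enzyme can supply.

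Replicate 1 held 426150 reads and replicate 2 held 770041, of which 397176 and 712032 lay on annotated mouse genes. Levels are given as CPM, a gene's reads per 1000000 reads on annotated genes of its library, and a count of 0 allows up to 7.55 CPM in replicate 1 and 4.21 in replicate 2. Both the cortex and the medulla were represented: all 6 cortex markers and all 7 chromaffin markers had reads, with Cyp11a1 at 28038 and 24144 CPM and Chga at 4824 and 5335. Fat markers were also read, the 6 brown fat markers at a summed 1893 and 1569 CPM and the 5 white fat markers at 1085 and 1065. The liver list had 109 reads in replicate 1 and 1 in replicate 2. Of 5 skeletal muscle markers 4 were at 0 and the other had 1 read in replicate 1, and all 4 kidney markers were at 0 in both libraries. Reads of whole tissue cannot tell fewer cells of a type from less RNA per cell. All intervals and p-values given here measure the error of counting alone.

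All 43 genes were read in both libraries, and together they took 6686 reads, 1.68% of the reads on annotated genes (95% Wilson interval 1.64 to 1.72), in replicate 1. In replicate 2 they took 11003 reads, 1.55% (1.52 to 1.57), which gives a mean of 1.61% ± 0.098 (SD, n = 2). The glycolytic genes held 0.884% and 0.809% of the reads, the genes of the cycle 0.553% and 0.521%, and the pyruvate entry genes 0.247% and 0.215%. The median gene stood at 252 CPM, against 39.4 CPM over the 9271 genes with at least 10 reads. Between the lowest and the highest gene lay a wide range: 3 genes were above 1000 CPM, 31 were between 100 and 1000 CPM and 7 were under 50 CPM, all counted without reads on near copies. Across the 43 genes the CPM of both libraries correlated with a Spearman's rho of 0.968, a description over genes that share their libraries.

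**Figure D1:**
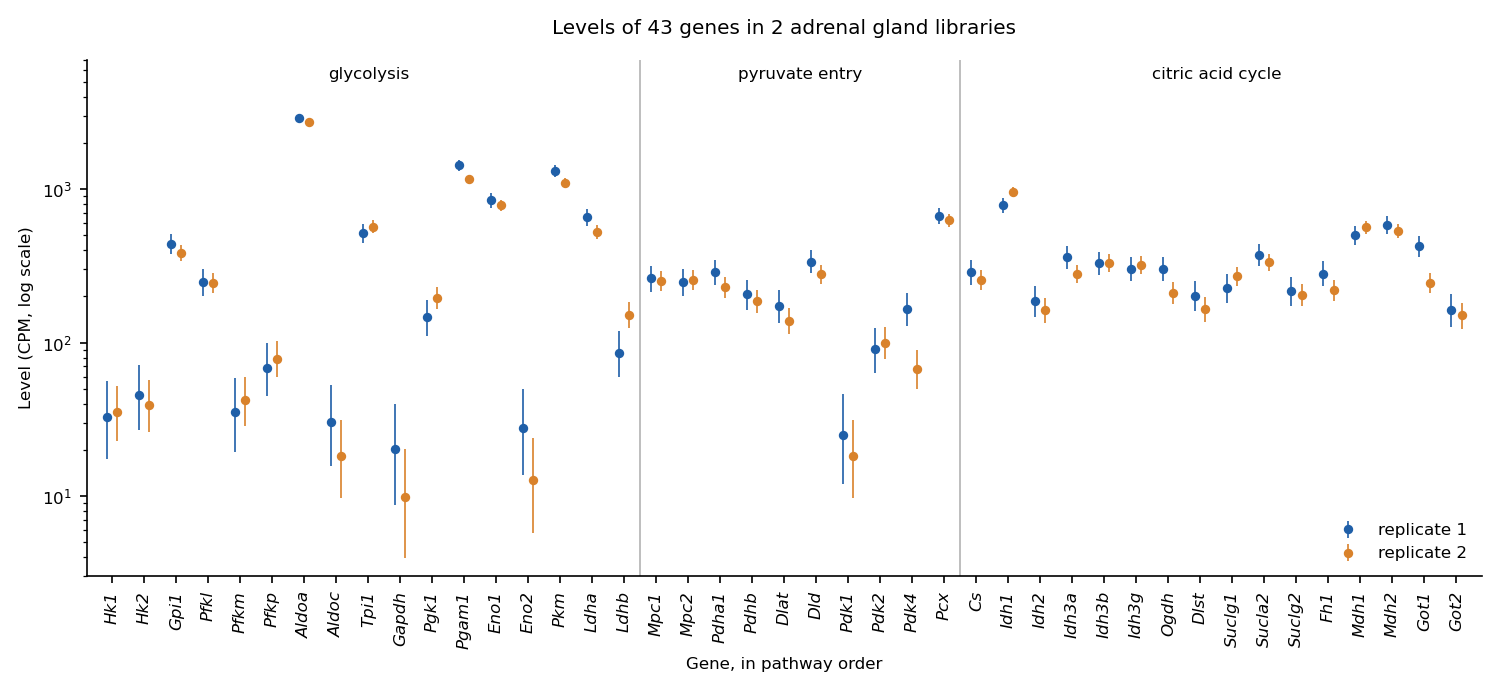
Level of each of the 43 genes in CPM (log axis), in pathway order, for replicate 1 (blue) and replicate 2 (orange). Points are the 2 libraries and bars are 95% Poisson counting intervals. Aldoa stands highest at 2890.4 and 2725 CPM, and most genes of pyruvate entry and the cycle lie between 100 and 1000 CPM.

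Aldoa, the aldolase that splits fructose 1,6-bisphosphate, was the most read of the 43 genes. It had 1148 reads in replicate 1 and 1940 in replicate 2, or 2890.4 and 2725 CPM (mean 2808 ± 117, SD, n = 2), and ranked at 18 among all annotated genes. A long read stands for 1 molecule whatever its length, so the main level is per read. As an alternative, which lowers genes with long models, levels were also compared per kilobase of the mean length of the models read, weighted by reads. On that scale Aldoa stood at 1890.5 ± 78.9 CPM per kb (SD, n = 2), and phosphoglycerate mutase Pgam1 followed at 732 ± 108. Pkm, which makes pyruvate, came next at 524 ± 65.4 CPM per kb. Below these lay enolase Eno1 at 411 ± 21.7, cytosolic isocitrate dehydrogenase Idh1 at 400 ± 57.1, mitochondrial malate dehydrogenase Mdh2 at 391 ± 24.9 and lactate dehydrogenase Ldha at 378 ± 58.8 CPM per kb. The gap between Eno1 and Ldha was smaller than the SD of Ldha or Idh1 and larger than that of Eno1 or Mdh2. This order rests on reads listed under each gene's own name. Reads on near copies, described further on, would raise Gapdh and Eno1 by over 1.5 times, and no other of the 43. Gapdh would move from the lowest of the 43 in CPM to a mean of 1752 CPM, the highest after Aldoa. Eno1 would move to 1320 ± 34.1 CPM (SD, n = 2). That is beside Pgam1 at 1300 ± 191 with its copy and Pkm at 1208 ± 151. Levels per kilobase were not computed with the copies added, so the order below Aldoa could change. The order per read and per kilobase was close, with a Spearman's rho of 0.934 over the 43 genes. Pcx, for example, ranked 6 in CPM and 13 per kilobase.

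Along glycolysis the summed levels of each step differed widely. Hexokinase, which traps glucose in the cell as glucose 6-phosphate, had 31 and 53 reads over Hk1 and Hk2, or 78.1 and 74.4 CPM. Per kilobase that is 25.7 CPM, against 151 for the next enzyme, the isomerase Gpi1, which had 441 and 386 CPM. Phosphofructokinase, the committed step, had 352 and 367 CPM over Pfkl, Pfkm and Pfkp, or 105 CPM per kb. Of the steps after it, 6 were higher per kilobase: aldolase at 1900.1 CPM per kb, triosephosphate isomerase Tpi1 at 343, phosphoglycerate mutase at 732, enolase at 419, pyruvate kinase at 524 and lactate dehydrogenase at 468. Tpi1, which interconverts the triose phosphates, had 516 and 570.2 CPM. Pgam1 had 1433 CPM in replicate 1 and 1161 in replicate 2, and Eno1 had 846 and 785. Phosphoglycerate kinase Pgk1, which makes ATP, had 146 and 197 CPM, or 95.0 CPM per kb, below phosphofructokinase on its own reads. Gapdh, the dehydrogenase between aldolase and Pgk1, was listed with 8 and 7 reads, 20.1 and 9.83 CPM.

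The counts of Gapdh and of 3 other genes have to be read together with those of near-identical copies elsewhere in the genome. A near copy was taken as another gene with at least 95% identity over at least 300 bases to the gene's most read principal protein-coding transcript, a search added after the counts were seen. For Gapdh the annotation holds 76 such genes, of which 16 had reads, 739 in replicate 1 and 1149 in replicate 2. They hold 99.2% of the reads of Gapdh and its copies. The most read copy was the processed pseudogene Gm12671 (chr4:91851668-91852669, mm10), which is 100% identical to Gapdh over 1002 bases and had 261 and 442 reads. Gm12033 (chr11:20335012-20336013) had 195 and 293 reads and Gm5559 (chr5:95861714-95862715) had 165 and 226, both 99.9% identical over 1002 bases. With the copies added, Gapdh would stand at 1881 and 1624 CPM, a mean of 1752 ± 182 (SD, n = 2). Reads of the gene and of its copies cannot be told apart from these files, so the listed Gapdh count is not a measure of its expression.

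Eno1 shared its sequence in the same way with Eno1b, with 177 and 345 reads, and with Gm4735, with 21 and 19 reads. The copies took 38.6% of the summed reads, and Eno1 with its copies stood at 1344 and 1296 CPM, against 846 and 785 for Eno1 alone. The Mpc1 copy Mpc1-ps (chr12:110858565-110858894) had 55 and 71 reads, 30.8% of the sum. For Pgk1 the copies Pgk1-rs7, with 15 and 26 reads, and Gm5537 took 21.1%. Near copies were annotated for 13 of the 43 genes, 7 had copies with reads, and in the other 3 of these 7 the copies held under 5% of the sum. Under this definition the copies held over 20% of the summed reads for Gapdh, Eno1, Mpc1 and Pgk1.

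**Figure D2:**
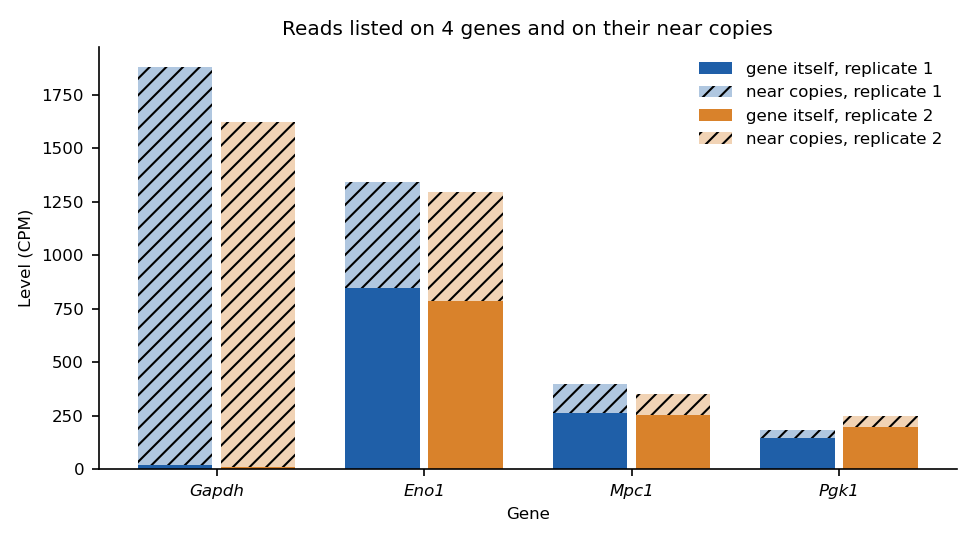
Level in CPM of Gapdh, Eno1, Mpc1 and Pgk1 (solid) and of their near copies (hatched, stacked), for replicate 1 (blue) and replicate 2 (orange). Bars start at 0 and show 1 library each, without error bars. Nearly all of the Gapdh bar, 99.2% of the reads, lies on copies.

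Pyruvate entry was led by pyruvate carboxylase. Pcx, which makes oxaloacetate from pyruvate, had 265 and 446 reads, or 667 and 626 CPM (mean 647 ± 28.9, SD, n = 2). On their own reads the carrier genes Mpc1 and Mpc2, whose proteins join into 1 transporter, lay side by side. Mpc1 had 262 and 251 CPM and Mpc2 had 249 and 256 CPM. With the reads of its near copy added, Mpc1 would stand at 400 and 351 CPM. Per kilobase Pcx stood at 210 ± 9.37, Mpc2 at 249 ± 4.42 and Mpc1 at 176 ± 5.06 CPM per kb, so the order of the 3 depended on the scale. In the pyruvate dehydrogenase complex, the E1 subunits had 289.5 and 230.3 CPM (Pdha1) and 206 and 187 CPM (Pdhb). Dlat, the E2 core, had 174 and 139 CPM, and Dld, the E3 subunit that this complex shares with oxoglutarate dehydrogenase, had 337 and 278 CPM. Per kilobase Pdhb (129), Dld (122) and Pdha1 (94.0) lay within a narrow band, and Dlat was at 40.9 CPM per kb. All 4 subunits had the lower CPM in replicate 2, and none passed the test between the libraries that follows.

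The kinases that switch the complex off by phosphorylating E1 stood at 43.9 ± 2.96 (Pdk2), 37.1 ± 22.2 (Pdk4) and 4.79 ± 1.08 (Pdk1) CPM per kb (SD, n = 2). Dlat was at 40.9 ± 6.41, and Pdk2 and Pdk4 differed from it by less than that SD. Pdk1 lay below Dlat. Pdk4, the member that fasting and glucocorticoids raise in many tissues, had 66 reads in replicate 1 and 48 in replicate 2, or 166 and 67.4 CPM. Pdk2 had 90.6 and 99.7 CPM and Pdk1 had 25.2 and 18.3 CPM. Pdk4 thus held 58.9% of the kinase reads in replicate 1 (49.7 to 67.6) but 36.4% in replicate 2 (28.7 to 44.8), where Pdk2 held 53.8% (45.3 to 62.1). The leading kinase therefore differed between the libraries, and per kilobase Pdk2 held the larger mean share, 53.1%.

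The citric acid cycle genes lay closer together than those of glycolysis. Citrate synthase Cs, which joins acetyl-CoA to oxaloacetate, had 287 and 257 CPM. Idh1, the NADP-linked isocitrate dehydrogenase of the cytosol, had 312 and 685 reads, or 786 and 962 CPM (mean 874 ± 125, SD, n = 2), and its mitochondrial relative Idh2 had 186 and 163 CPM. The NAD-linked enzyme of the cycle is built from the catalytic Idh3a and the regulatory Idh3b and Idh3g. These had 360.0 and 281 CPM for Idh3a, 329.8 and 331 for Idh3b, and 302 and 320.2 for Idh3g. All 3 lay between 281 and 360.0 CPM. Per kilobase Idh3a was at 128 ± 22.3 and Idh3b at 233 ± 0.81 CPM per kb.

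Oxoglutarate dehydrogenase followed with 302 and 212 CPM for its E1 subunit Ogdh and 201 and 166 CPM for its E2 subunit Dlst. Succinyl-CoA ligase, which makes the nucleotide triphosphate of the cycle, had 227 and 271 CPM for its alpha subunit Suclg1. Its alternative beta subunits had 375 and 333 CPM (Sucla2, for the ADP-linked form) and 217 and 205 CPM (Suclg2, for the GDP-linked form). Fumarase Fh1 had 282 and 219 CPM. Malate dehydrogenase, which closes the cycle and serves the malate-aspartate shuttle, stood at a summed 647 CPM per kb. Of this, Mdh1 made up 257 and Mdh2 391 CPM per kb. The NAD-linked isocitrate dehydrogenase, summed over its subunits, was at 594 CPM per kb. Mdh1 of the cytosol had 501 and 566 CPM and Mdh2 of the matrix had 584 and 534. The aminotransferases of the same shuttle had 426 and 244 CPM (Got1, cytosolic) and 164 and 150 CPM (Got2, mitochondrial).

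Where several genes serve a step, 1 gene often took most of the reads. Aldoa held 99.0% of the aldolase reads in replicate 1 and 99.3% in replicate 2, and Aldoc, the brain form, had 12 and 13 reads. Eno1 held 96.8% and 98.4% of the enolase reads, with 11 and 9 reads on the neuronal form Eno2. Idh1 held 80.8% (76.6 to 84.4) and 85.5% (82.9 to 87.8) of the NADP-linked isocitrate dehydrogenase reads. Per kilobase these genes led by similar shares, 99.5%, 98.1% and 79.9%. The liver-type phosphofructokinase Pfkl held 70.7% (62.7 to 77.6) and 67.0% (61.1 to 72.5), ahead of the platelet type Pfkp with 19.3% and 21.5% and the muscle type Pfkm with 10% and 11.5%. Sucla2 held 63.4% (57.1 to 69.3) and 61.9% (56.9 to 66.6) of the beta subunit reads. In these 5 sets the same gene led in both libraries, per read and per kilobase.

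In 4 sets the reads were divided more evenly, though less so per kilobase. Hk2 had 58.1% of the hexokinase reads (40.8 to 73.6) and then 52.8% (39.7 to 65.6), intervals that include an equal division with Hk1. Per kilobase Hk2 held 66.1%, but among annotated transcripts alone Hk1 led, and Hk2 held 35.6%. Mpc1 held 51.2% and 49.6% of the carrier reads, but 41.4% per kilobase and 59.7% with the reads of its near copy added. Mdh2 held 53.8% (49.1 to 58.5) and 48.5% (45.0 to 52.0) of the malate dehydrogenase reads, though 60.4% per kilobase. The subunits Idh3a, Idh3b and Idh3g held 36.3%, 33.2% and 30.5% in replicate 1 and 30.1%, 35.5% and 34.3% in replicate 2. Per kilobase their mean shares were 21.5%, 39.3% and 39.2%. Got1 and Ldha led their sets in both libraries and on both scales, by shares that differed between the libraries. Got1 held 72.2% (66.2 to 77.6) and 61.9% (56.1 to 67.4) of the aminotransferase reads. Ldha, the lactate dehydrogenase subunit favoured in anaerobic tissues, held 88.5% (84.3 to 91.6) in replicate 1 and 77.6% (73.7 to 81.1) in replicate 2. The remainder was on Ldhb, the heart-type subunit. Shares of paralogs were not tested between the libraries, and neither Ldha nor Ldhb passed the test of levels that follows.

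**Figure D3:**
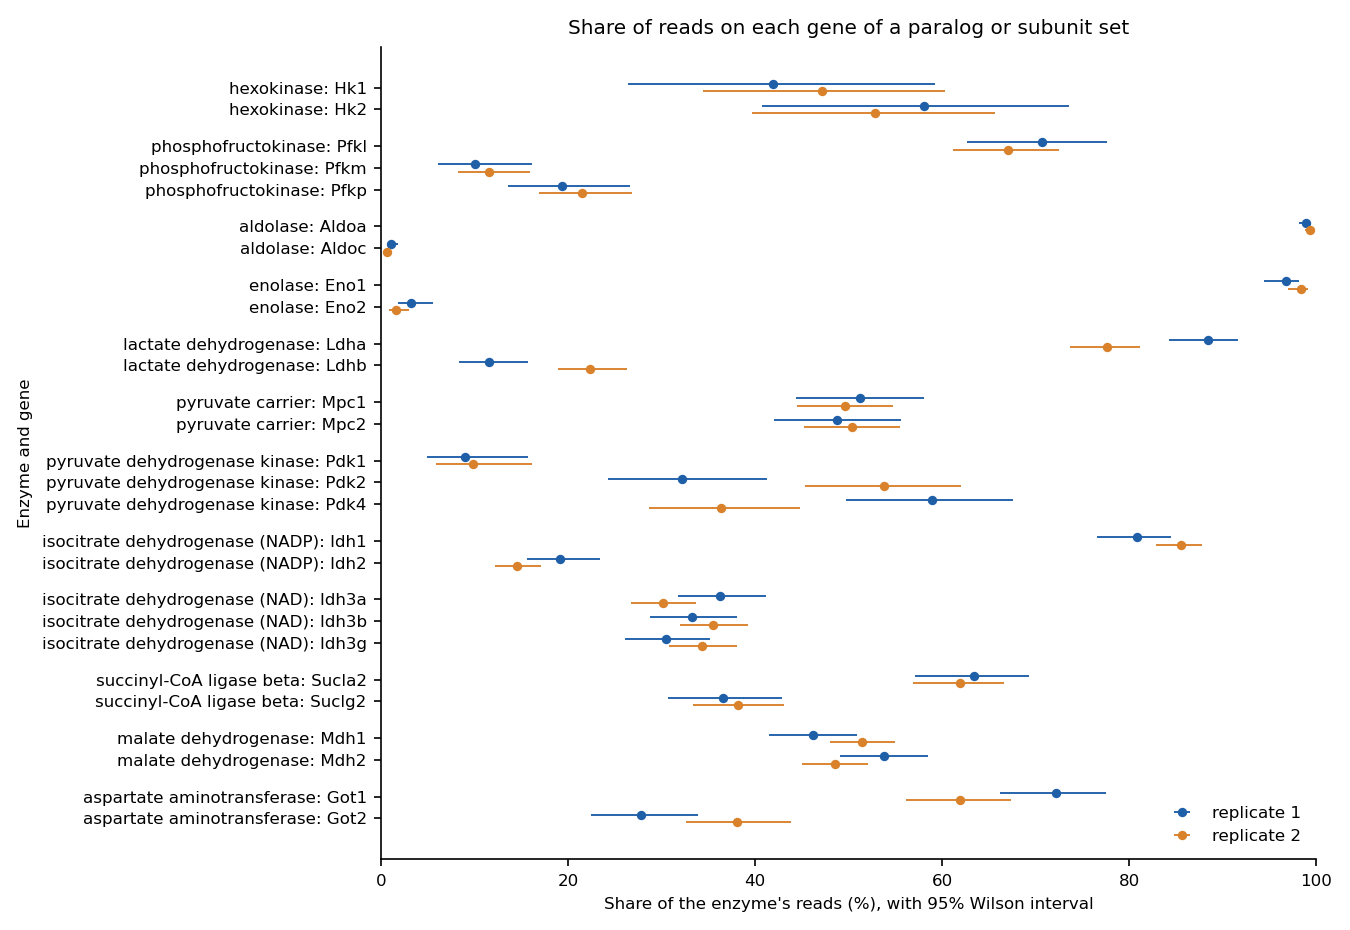
Share of the reads of each enzyme (%, x axis) on each of its genes, for 12 sets of paralogs or subunits, in replicate 1 (blue) and replicate 2 (orange). Points are libraries and bars are 95% Wilson intervals. Aldoa and Eno1 lie near 100%, hexokinase, pyruvate carrier and malate dehydrogenase are divided, and Pdk2 and Pdk4 exchange places.

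Between the 2 libraries, 3 of the 43 genes differed by the two-sided exact binomial test at an adjusted p under 0.05, all 3 of them higher in replicate 1. The test covered the 9271 genes with at least 10 reads, with Benjamini-Hochberg adjustment over all of them, and called 199, or 2.15%. Those 199 were 125 genes with the higher level in replicate 1 (1.35% of all tested) and 74 with the higher level in replicate 2 (0.798%). With TMM or DESeq2 scaling they were 148 and 55. The test compares these libraries and not conditions. Got1 (ENSMUSG00000025190.13, chr19:43499752-43524605, mm10, minus strand) had 169 reads in replicate 1 and 174 in replicate 2. That is 426 and 244 CPM, a log2 ratio of replicate 2 over replicate 1 of -0.80 (counting interval -1.11 to -0.49, exact binomial adjusted p = 5.8e-05). Pdk4 (ENSMUSG00000019577.6, chr6:5483351-5496309, minus strand), at 166 and 67.4 CPM, had the largest ratio of the 43, -1.30 (-1.87 to -0.74, exact binomial adjusted p = 0.00026). Pgam1 (ENSMUSG00000011752.7, chr19:41911923-41918660, plus strand), with 569 and 827 reads, had -0.30 (-0.46 to -0.15, exact binomial adjusted p = 0.0098), a 1.23-fold difference.

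The other genes did not pass, though several had unequal values. Ldhb had 34 and 108 reads, 85.6 and 152 CPM, the highest log2 ratio at 0.81 (0.26 to 1.43, exact binomial adjusted p = 0.094). Idh1 was at 0.29 (exact binomial adjusted p = 0.096), Pkm with 522 and 784 reads at -0.26 (exact binomial adjusted p = 0.075) and Ogdh with 120 and 151 reads at -0.51 (exact binomial adjusted p = 0.12). Without adjustment 10 of the 43 genes had an exact binomial p under 0.05, 23.3%, against 11.5% of all tested genes. Of these 10, 8 had the lower level in replicate 2 and 2 the higher. Neither these shares nor those after adjustment were matched for reads. The median level was 252 CPM for the 43 genes and 39.4 CPM over all tested genes, and the part of depth was not tested. The median log2 ratio of the 43 was -0.15, with 30 negative and 13 positive, and that of all tested genes was 0.03. By pathway the medians were -0.11 for glycolysis, -0.21 for pyruvate entry and -0.15 for the cycle, and each pathway held 1 of the called genes. Over the 43 genes the log2 ratio and the mean length of the models read had a Spearman's rho of -0.34, a description over genes. With models of 1 exon left out, 5 genes passed, since Idh1 (higher in replicate 2) and Ogdh (higher in replicate 1) joined the 3.

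Markers of other cells also differed between the libraries. Of 36 tested markers 15 passed, against 2.15% of all tested genes, and the markers were not matched to these for reads. Ucp1, the uncoupling protein of brown fat, had 526 and 279 CPM (exact binomial adjusted p = 7.4e-08), and the other 4 tested brown fat markers did not pass. None of 4 tested white fat markers passed, and all 5 tested liver markers were higher in replicate 1. Of the gland's own cells, 4 of 6 cortex markers passed, 3 of them higher in replicate 1 and 1 higher in replicate 2. These 4 are highly read, and they differed by only 1.11-fold (Hsd3b1) to 1.31-fold (Star). Of 7 chromaffin markers 3 passed, 1 higher in replicate 1 and 2 in replicate 2, by 1.11-fold (Chga) to 1.29-fold (Chgb). Red blood cell markers summed to 3074 and 3682 CPM, and 2 of 5 passed, both higher in replicate 2. The 3 endothelial markers, with 29 and 52 reads, and the 3 macrophage markers, with 7 and 12, had none that passed. Their part in the differences of Got1, Pdk4 and Pgam1 was not tested.

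**Figure D4:**
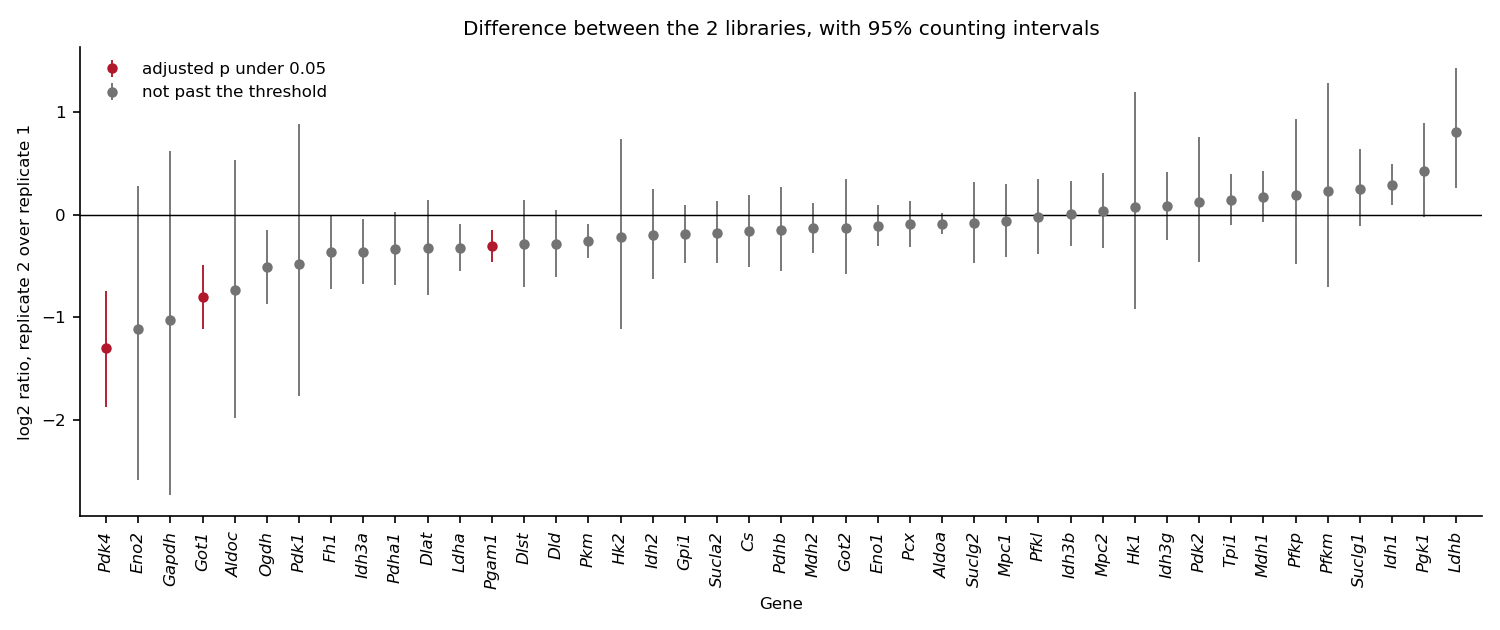
Log2 ratio of replicate 2 over replicate 1 for each of the 43 genes (y axis), sorted from low to high. Points are ratios with 0.5 reads added to each count and bars are exact 95% counting intervals. Red points (Pdk4, Got1, Pgam1) passed at an adjusted p under 0.05, and 30 of the 43 points lie under 0.

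Other genes around these pathways were covered by a list of 68, of which 60 had reads and 48 could be tested. Of these 48, 4 passed, all higher in replicate 1, and the median log2 ratio of the 48 was -0.11. Over all 9271 tested genes 2.15% passed, 1.35% as higher in replicate 1, and the list was not matched to them for reads. Me1, the cytosolic malic enzyme, which makes NADPH, had 1924 and 1466 CPM (exact binomial adjusted p = 3.6e-06). Acly, which turns citrate back into acetyl-CoA, had 2795 and 2441 CPM (exact binomial adjusted p = 0.028). With 1110 and 1738 reads it passed at a 1.15-fold difference. The gluconeogenic Pck1 had 232 and 136 CPM (exact binomial adjusted p = 0.022).

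Of the other 44 tested genes none passed. The highest of the cycle's other genes was the succinate dehydrogenase subunit Sdha at 841 and 775 CPM, and of the pentose phosphate pathway it was transaldolase Taldo1 at 1063 and 1098. Bsg, the chaperone of the lactate transporters, had 954 and 907 CPM. Pdhx, the E3-binding subunit of the pyruvate dehydrogenase complex, had 201 and 157 CPM, and the nuclear receptor Esrra, a regulator of mitochondrial genes, had 118 and 114. Of 3 glucose transporters Slc2a4 had the highest mean, with 30.2 and 28.1 CPM, and Slc2a1 was above it in replicate 1 with 32.7 CPM. Of the regulators of phosphofructokinase Pfkfb3 had the highest mean, with 25.2 and 8.43 CPM, though Tigar was above it in replicate 2 with 15.4 CPM, as was Pfkfb2 with 9.83. Of 13 other isozymes Eno3 had the highest mean, with 37.8 and 28.1 CPM, and Bpgm was above it in replicate 2 with 32.3 CPM. Another 7, Hk3, Hkdc1, Pgk2, Eno4, Pklr, Ldhc and Pdha2, had no read, which allows up to 7.55 and 4.21 CPM.

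Reads of these genes fell on annotated transcripts more than reads in general did. In replicate 1 84.1% of the reads of the 43 genes lay on annotated transcripts, against 77.1% of all reads on annotated genes, and in replicate 2 it was 84.4% against 77.0%. The median gene had 88.0%, against 76.9% over all tested genes, and 31 of the 43 were above 80%. Only Hk2, Mpc1, Idh3g and Got2 were under 50%. Within the annotated transcripts, 1 transcript dominated: in 37 of the 43 genes it held over 95% in both libraries, and in 24 genes only 1 was read at all. Only Pkm had a second annotated transcript at 20% or more in each library.

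Transcript use was compared between the libraries wherever each of them held 20 or more reads on the annotated transcripts of a gene and at least 2 such transcripts were read. The two-sided Fisher's exact test called 3 of 1866 genes, or 0.161%, at an adjusted p under 0.05. Of the 43 genes 16 could be tested and none passed, and none had an unadjusted p under 0.05. Among the other 15 the lowest share of a leading transcript was that of Fh1-201, with 98 of 106 reads in replicate 1 and 148 of 152 in replicate 2.

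Pkm (ENSMUSG00000032294.17, chr9:59656368-59679375, mm10, plus strand) is the textbook case of mutually exclusive exons. The M1 enzyme of muscle and brain and the M2 enzyme of many other tissues differ only in the exon that each includes, and M2 is open to regulation by fructose 1,6-bisphosphate. Exon M1 lies at chr9:59675029-59675195 and exon M2 at chr9:59675568-59675734, each of 167 bases, and they differ at 64 positions (61.7% identical). Both are shown in full because the choice between them was the main isoform choice among the 43 genes. Capitals mark the positions that differ, and the letters come from the GENCODE M21 transcripts Pkm-202 and Pkm-201, so the bases are those of the mm10 reference.
Pkm exon M1: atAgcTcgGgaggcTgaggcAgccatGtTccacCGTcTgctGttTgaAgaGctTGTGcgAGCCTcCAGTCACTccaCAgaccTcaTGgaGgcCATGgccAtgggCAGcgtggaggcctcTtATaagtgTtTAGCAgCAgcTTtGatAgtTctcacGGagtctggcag
Pkm exon M2: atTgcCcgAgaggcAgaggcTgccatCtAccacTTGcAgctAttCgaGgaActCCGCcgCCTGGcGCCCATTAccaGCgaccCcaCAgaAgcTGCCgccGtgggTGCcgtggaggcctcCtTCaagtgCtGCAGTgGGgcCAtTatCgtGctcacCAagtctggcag

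Exon M2 was in most Pkm molecules. Of reads with 1 of these exons, 406 of 506 carried M2 in replicate 1, 80.2% (76.5 to 83.5), and 598 of 762 in replicate 2, 78.5% (75.4 to 81.2). The mean was 79.4% ± 1.24 (SD, n = 2), and the libraries did not differ (two-sided Fisher's exact p = 0.48). Exon M1 was in the other 20.6%. Models with both exons had 4 and 6 reads, and models with neither had 12 and 16. Among annotated transcripts Pkm-201, with M2, had 359 and 561 reads and Pkm-202, with M1, had 95 and 145. Skeletal muscle markers were at 1 and 0 reads in these libraries. Cortex markers summed to 74546 and 67341 CPM and chromaffin markers to 10927 and 11983 CPM. Brown fat markers summed to 1893 and 1569 CPM and white fat markers to 1085 and 1065 CPM. In which cells of the gland M1 was read cannot be told apart here.

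Mpc1 (ENSMUSG00000023861.17, chr17:8282904-8297661, plus strand) was read mostly as a chain of exons that the annotation lacks. The annotated protein-coding transcripts Mpc1-201 and Mpc1-208 place an exon of 4 bases between the exon that ends at 8283961 and the exon that starts at 8296535, at different positions. Of reads across this interval, 96 of 103 in replicate 1 (93.2%, 86.6 to 96.7) and 174 of 178 in replicate 2 (97.8%, 94.4 to 99.1) joined the outer exons directly. Models with a 4-base exon had 0 reads in both libraries, which allows up to 2.91% and 1.69% of the reads. Mpc1-202, whose exon there is 81 bases long, had 5 and 3 reads, and it was the only annotated Mpc1 transcript with reads. The bases at the junction are printed here, 20 on each side (chr17:8283942-8296554 from first to last), with the 4 bases of the small exon in capitals.
Mpc1 read model: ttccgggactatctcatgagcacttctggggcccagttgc
Mpc1-201: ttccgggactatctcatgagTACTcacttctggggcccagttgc
Mpc1-208: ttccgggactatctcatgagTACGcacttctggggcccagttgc
Mpc1-ps: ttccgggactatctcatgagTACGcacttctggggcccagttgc

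The read model lacks the 4 bases that both annotated transcripts hold, and those transcripts differ from each other in the last of them. Mpc1-ps, the copy without introns on chromosome 12 (chr12:110858800-110858843, minus strand, for the bases shown), holds the same 4 bases as Mpc1-208. The models give exon positions and not the bases of the reads, so bases that a read held but its alignment did not place are not seen in them. Whether the Mpc1 molecules hold the 4 bases was not tested.

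Idh3g (ENSMUSG00000002010.17, chrX:73778963-73786897, minus strand), the gamma subunit of the NAD-linked enzyme, was also read as chains outside the annotation. Idh3g-201, its only annotated protein-coding transcript, places an exon of 12 bases between the exon of 42 bases that ends at 73782675 and the exon that begins at 73782103. No read model held the 12-base exon, which allows up to 2.88% of the 104 spanning reads of replicate 1 and 1.47% of the 204 of replicate 2. In 84 of 104 reads (80.8%, 72.2 to 87.2) and 174 of 204 reads (85.3%, 79.8 to 89.5) the 42-base exon was instead longer by 4 bases. A further 19 and 30 reads (18.3% and 14.7%) kept its annotated end and went straight to the next exon. The division did not differ between the libraries (two-sided Fisher's exact p = 0.41). Annotated transcripts of Idh3g had only 3 and 5 reads, of which 1 and 5 were on Idh3g-209, a transcript with a retained intron. The 3 versions of the junction are shown on the strand of the gene (chrX:73782084-73782694), with the bases between the shared flanks in capitals.
Idh3g-201: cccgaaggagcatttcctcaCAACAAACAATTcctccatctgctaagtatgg
Idh3g leading read path: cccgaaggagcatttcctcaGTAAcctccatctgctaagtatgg
Idh3g second read path: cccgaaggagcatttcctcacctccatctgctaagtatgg

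The 4 bases of the leading path are the first bases of the annotated intron, which begins as shown next (chrX:73782663-73782674, minus strand, in capitals as intron).
Idh3g intron start: GTAAGTACCTGC
The intron thus holds GT at its annotated start and again 4 bases on, where the intron of the leading read path starts. The insert lengths of the 3 versions are 12, 4 and 0 bases, of which only 12 and 0 are multiples of 3. Whether the extra bases come from the molecules or from where the alignment placed the reads was not tested.

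Got2 (ENSMUSG00000031672.8, chr8:95864134-95888547, minus strand), the mitochondrial aminotransferase, showed a divided last junction. The annotated junction had 36 of 63 reads in replicate 1 (57.1%, 44.9 to 68.6) and 47 of 99 in replicate 2 (47.5%, 37.9 to 57.2). A junction shifted by 4 bases at both ends, which leaves the length of the transcript as it is, had 26 (41.3%) and 50 reads (50.5%). The libraries did not differ in this division (two-sided Fisher's exact p = 0.26). The shifted junction leaves out the first 4 bases of the last exon, shown in capitals (chr8:95865232-95866840 from first to last, minus strand), and takes 4 bases of intron instead.
Got2-201: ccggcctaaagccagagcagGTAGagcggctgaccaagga
The intron's own bases were not used here, and whether the shift lies in the molecules or in the alignment was not tested. With the shifted chain outside the annotation, only 32 and 42 Got2 reads were on an annotated transcript, Got2-201.

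**Figure D5:**
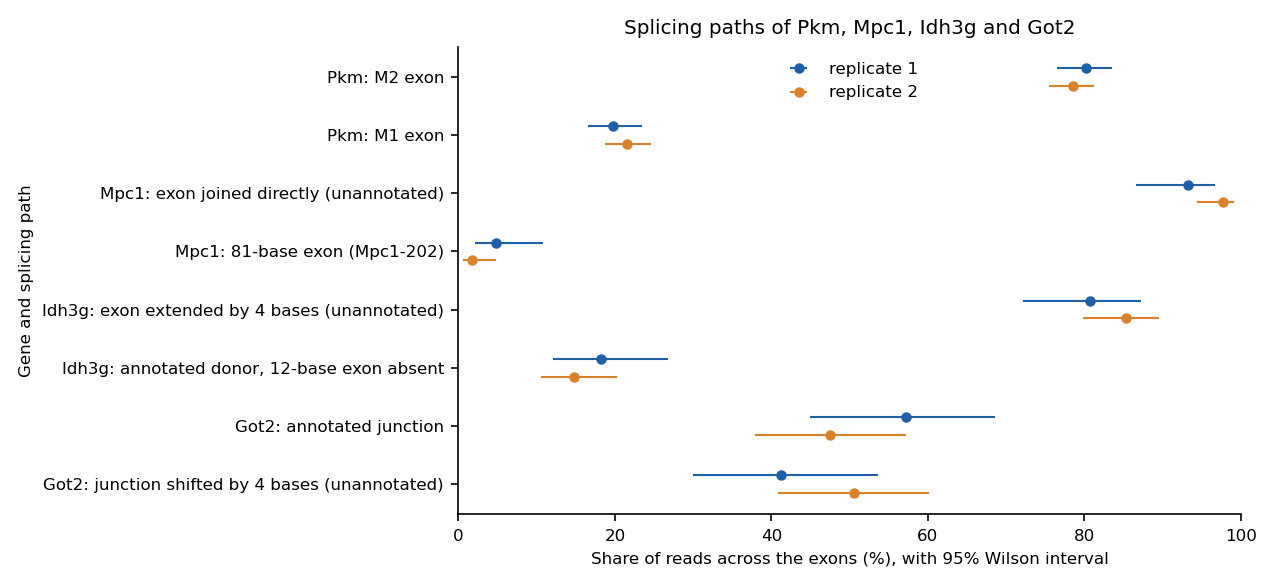
Share of the reads across an exon or junction (%, x axis) on each path, for Pkm, Mpc1, Idh3g and Got2, in replicate 1 (blue) and replicate 2 (orange). Points are libraries and bars are 95% Wilson intervals. Unannotated paths lead in Mpc1 and Idh3g, Got2 is divided, and M2 leads in Pkm at 80.2% and 78.5%.

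Aldoa (ENSMUSG00000030695.16, chr7:126795234-126800751, minus strand) used mainly 1 of its alternative first exons. Of 1035 and 1773 reads with a leader exon before the first shared coding exon, 946 (91.4%, 89.5 to 93.0) and 1661 (93.7%, 92.5 to 94.7) had the leader of Aldoa-201 alone. The leader that begins further upstream, of Aldoa-210, was joined directly in 44 reads (4.25%) and 46 reads (2.59%). The 2 leader exons of Aldoa-202 were together in 29 and 43 reads, and the leader of Aldoa-203 was in 6 and 11. The share of the Aldoa-201 leader (two-sided Fisher's exact p = 0.028) and that of the Aldoa-210 leader (two-sided Fisher's exact p = 0.019) had p-values under 0.05 only before adjustment. Adjusted over the 8 leader arrangements compared, both had an exact p of 0.11, and neither passed.

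Pcx (ENSMUSG00000024892.17, chr19:4510472-4621752, plus strand) had only 55.6% of its reads on annotated transcripts. Models of 1 exon held 61 of 265 reads (23.02%) and 81 of 446 reads (18.2%), and spliced models that match only the 3′ part of an annotated transcript held 15.8% and 21.5%. Hk2 had 58.7% of its 46 reads on models of 1 exon, and only 8 and 7 reads on its annotated transcript Hk2-201. Ogdh, with 52.8% on annotated transcripts, had a further 26.2% on partial matches. Counted on annotated transcripts alone, the level of Hk2 moved by over 1.5 times.

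Outside the annotation, the 43 genes had 632 spliced chains, of which 410 had 1 read. Only 166 chains were read in both libraries, with 666 and 1056 reads, in 34 genes. The most read were the Mpc1 chain described above with 96 and 171 reads, and the Idh3g chain with 80 and 166. The shifted Got2 chain had 26 and 48 reads and the second Idh3g chain 17 and 30. Of the other 6 of the 10 most read, 4 belonged to Aldoa, with the upstream leader joined directly (44 and 46 reads) or as 3′ parts of its transcripts (34 and 74 reads for the highest). The last 2 were 3′ parts of Pcx (9 and 20 reads) and of Idh1 (7 and 16 reads).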

How the data were processed

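The deposited tables give whole read counts per transcript model in each library, per the file headers, with the exon number and length of the model, and the deposited annotations give its exons. Per the file headers the authors used genome build mm10 and the GENCODE M21 annotation. Which aligner and which program versions were used is not given in the sources used here. ERCC control reads were left out.

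Model counts were summed by gene. For genes with at least 10 reads, the reads were set against the library totals in two-sided exact binomial tests, and transcripts and exons by two-sided Fisher's exact tests (SciPy 1.17.1). P-values of gene levels and of transcript use were Benjamini-Hochberg adjusted over all genes tested, with a threshold of 0.05. Those of the Aldoa leaders were adjusted over the arrangements compared, and those of the Pkm exons and the Idh3g and Got2 junctions were not adjusted. Log2 ratios had 0.5 added to each count. Scaling by edgeR 4.0.16 (TMM) and DESeq2 1.42.0 was an alternative. Near copies were found with BLAST 2.17.0 (at least 95% identity over 300 bases). Both tests across genes were tried on counts simulated with counting error alone, so spread between libraries was not covered. In well-read genes the test of levels recovered 36% of 1.5-fold and 74% of 2-fold changes, and called 5 of 9047 unchanged genes. The test of transcript use recovered 77% of shares moved by 30 points, and called 3 of 1535 unchanged genes. The scripts ran in Python 3.11.15, pandas 2.3.3 and numpy 2.4.6, with matplotlib 3.10.9 and R 4.3.3.

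Text names any of the 43 genes, the highest and the called genes of the 68 others (1 called gene is not reported here), and the 10 most read unannotated chains. The 43 genes, the lists and the markers were chosen with earlier results of these data known. Intervals are 95% Wilson or exact intervals for counting error, and they and the tests treat each read as independent. Reads without molecular identifiers are not known to be independent molecules. Where they are not, the intervals are too narrow and the p-values too small. Sequences were read from the GENCODE M21 transcripts. The mm10 genome sequence and the alleles of the parental strains were not used here.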

Additional observations from a re-analysis of the deposited data

Results flagged for a closer look

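Reads on unannotated antisense models over the loci of the 43 genes were not part of any comparison, and 3 genes had more of them in each library than the 3 reads that a count of 0 allows. Over Idh1 there were 20 antisense reads in replicate 1 and 25 in replicate 2, on 5 and 4 models. Over Pcx there were 7 and 16, on 3 and 4 models, and over Pkm 5 and 7, on 1 model in each library. How strand was assigned to the reads is not given in the sources used here.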

How the results depend on the processing

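The share of reads on the 43 genes was 1.77% with annotated transcripts alone and 1.86% with near copies added (an alternative chosen after seeing the data), against 1.61%, and 1.55% to 1.68% with 1 library left out. The median level was 281 CPM with annotated transcripts, 272 CPM without models of 1 exon and 99.3 CPM per kilobase, against 252 CPM. Got1, Pdk4 and Pgam1 passed under all 7 alternatives run, and 3 to 5 genes passed in each: Pkm joined under TMM or DESeq2 scaling, and Idh1 and Ogdh without models of 1 exon. Over all genes 152 to 203 passed, and the part higher in replicate 1 was 62.8%, or 72.9% under TMM or DESeq2 scaling.

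The leading gene changed in 5 of the 12 sets of paralogs or subunits. In the Mpc1 and Idh3b sets the genes encode subunits that join into 1 protein complex, so there the lead is not a choice between enzymes. With annotated transcripts alone Hk2 held 35.6%, Idh3b 43.1% (behind Idh3a) and Mpc1 3.29%, and without models of 1 exon Hk2 held 35.2% and Idh3b 32.3%. Per kilobase Mpc1 held 41.4% and Pdk4 41.4%. With 1 library left out Mdh2 held 48.5% to 53.8%, Mpc1 49.6% to 51.2%, Pdk4 36.4% to 58.9% and Idh3b 33.2% to 35.5%. Mdh2, Mpc1 and Pdk4 lost the lead without replicate 1 and Idh3b without replicate 2. The Pkm M2 share stayed between 78.5% and 80.2%. The most read annotated transcript held 3.24% of all Mpc1 reads and 1.51% of all Idh3g reads, against 100% and 66.7% of their annotated reads, and for Idh3g 33.3% to 100% with 1 library left out. Transcript use called 3 genes at a minimum of 10, 20 or 50 reads. Depth limits the 7 genes under 50 CPM most, whose ratios have the widest intervals. No paired analysis was possible because the series has 1 group.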
